A study of Homo sapiens with 3 samples.

Results

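The comparison described here asks how activation of Notch reshapes the response of colon cancer cells to tumour necrosis factor alpha (TNF). It sets LS174T-tetON-NICD cells given TNF and doxycycline together (TNF+Dox) against the same cells given TNF alone, and uses 2 of the 3 arrays of the study. LS174T is a human colon carcinoma line, and in this derivative doxycycline turns on expression of NICD, the part of Notch that signals in the nucleus once it is cut free (the intracellular domain). The TNF+Dox culture received TNF at 50 ng/ml and doxycycline at 100 ng/ml for 24 h. The TNF culture received TNF at 50 ng/ml for 24 h and no doxycycline. The remaining array held cells given doxycycline alone (100 ng/ml, 24 h), and its ratios are quoted beside the others without a comparison. On each two-colour array the treated RNA carried Cy3 and RNA of untreated cells of the same line carried Cy5, with no dye swap. Each condition was 1 culture on 1 array, so no difference below has a test or a replicate error. Every group, the untreated control included, was of the same NICD-inducible line. No doxycycline-treated cells without NICD were measured, so that the effects of NICD and of doxycycline itself cannot be told apart.

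All genes with a usable probe were members of the comparison: 19587 of 24460 gene probes were above background in at least 1 channel of both arrays, and 16498 of these carried a gene symbol and gave 14670 genes. The measure is the log2 ratio of treated over control on the TNF+Dox array minus the same ratio on the TNF array, called the ratio difference. A second measure, the treated-signal difference, is the log2 Cy3 signal of the TNF+Dox array minus that of the TNF array after both arrays were scaled to 1 median. Signals quoted for single genes are intensities over the blank spots of the array, in the scanner's arbitrary units and without that scaling.

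Notch receptors are cleaved when a neighbouring cell presents a ligand, and the freed intracellular domain joins the DNA-binding protein RBPJ to switch on genes such as those of the HES and HEY repressor families. In the intestinal epithelium Notch keeps stem and progenitor cells undifferentiated and restrains the secretory lineage, whose master factor is ATOH1. TNF binds its receptor on epithelial cells and activates the transcription factor NF-kB, which drives genes of chemokines, survival factors and its own inhibitors.

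The treated channel of the TNF array differed from the other channels before any gene was considered. Treated probes above background numbered 20465 on the TNF+Dox array and 17869 on the TNF array, and the median treated signal was 126 and 70.0. These medians include the blank level, whose mean was 64.4 on the TNF+Dox array and 51.4 on the TNF array. The control channels of the arrays were close to each other, with an SD of 0.119 (log2) over genes and 5 genes apart by 2-fold or more (GUCA2A, LTB, RAB1A, RPS26P6 and SERPINA12). These values were taken after background correction with an offset of 50 and scaling to 1 median. The offset shrinks gaps between dim spots. In signals over the blanks, the controls of dim genes such as UBD, IGFL1 and CTSS were also more than 2-fold apart, as given below. Of 2356 genes with a control signal above 500 on both arrays, the treated signal was under 10% of the control signal for 1 gene (CLDN2) on the TNF+Dox array, for 189 on the TNF array and for 0 on the Dox array. These low spots were spread over the slide: among 3030 probes of that brightness, the share at least 4-fold low on the TNF array was between 10.5% and 22.1% in each of the 24 blocks. Probes of 1 gene differed from each other with a pooled SD of 0.294 in the TNF+Dox ratio and 0.740 in the TNF ratio. For many named gains over the TNF array, the TNF ratio or both treated signals are therefore given below, but not for all. The part of the low spots in any single gain was not tested. With 1 array, a fault of the TNF array and an effect of TNF on these genes cannot be told apart, and this holds for every gain from a low TNF ratio below. Of the epithelial markers, 6 of 6 measured (EPCAM, CDH1, KRT18, KRT19, CDH17, VIL1) were above background on both arrays, with summed treated signals of 98140 with TNF+Dox and 76039 with TNF. Markers of immune cells (4 of 7 above background in both treated channels, 654 and 432 summed, mostly CD68), fibroblasts (3 of 6, 480 and 250) and endothelium (3 and 2 of 3, 67.7 and 57.9) were low, with PTPRC, CD3E, MS4A1, COL1A1 and COL3A1 near 0.

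With TNF+Dox, 2033 of the 14670 genes (13.9%) stood at least 2-fold higher than with TNF and 479 (3.27%) at least 2-fold lower. Most of the higher genes were genes that read low on the TNF array: 1337 of them had a TNF ratio of -1 or lower and lay within 2-fold of control with TNF+Dox. A smaller group of 246 genes (1.68%) was at least 2-fold above control with TNF+Dox and also at least 2-fold higher in treated signal. Of these, 185 (1.26%) had a TNF ratio above -1 and are called gains without a low TNF ratio. Genes that the TNF array read below control by less than 2-fold remain among them. Of the 185, 36 had a mean control signal under 25, where the offset of the processing keeps even a lost spot near or above this limit. The class is therefore not free of low spots on the TNF array. All 479 lower genes were also at least 2-fold lower in treated signal, and 1317 of the 2033 higher genes (64.8%) were at least 2-fold higher. The treated signal is part of the ratio and its difference had a median of -0.57 over all genes, which favours agreement for the losses. Against control, 463 genes (3.16%) were at least 2-fold higher and 310 (2.11%) lower with TNF+Dox, while 266 (1.81%) were higher and 1787 (12.2%) lower with TNF. With Dox, 171 (1.17%) were higher and 59 (0.402%) lower.

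**Figure D1:**
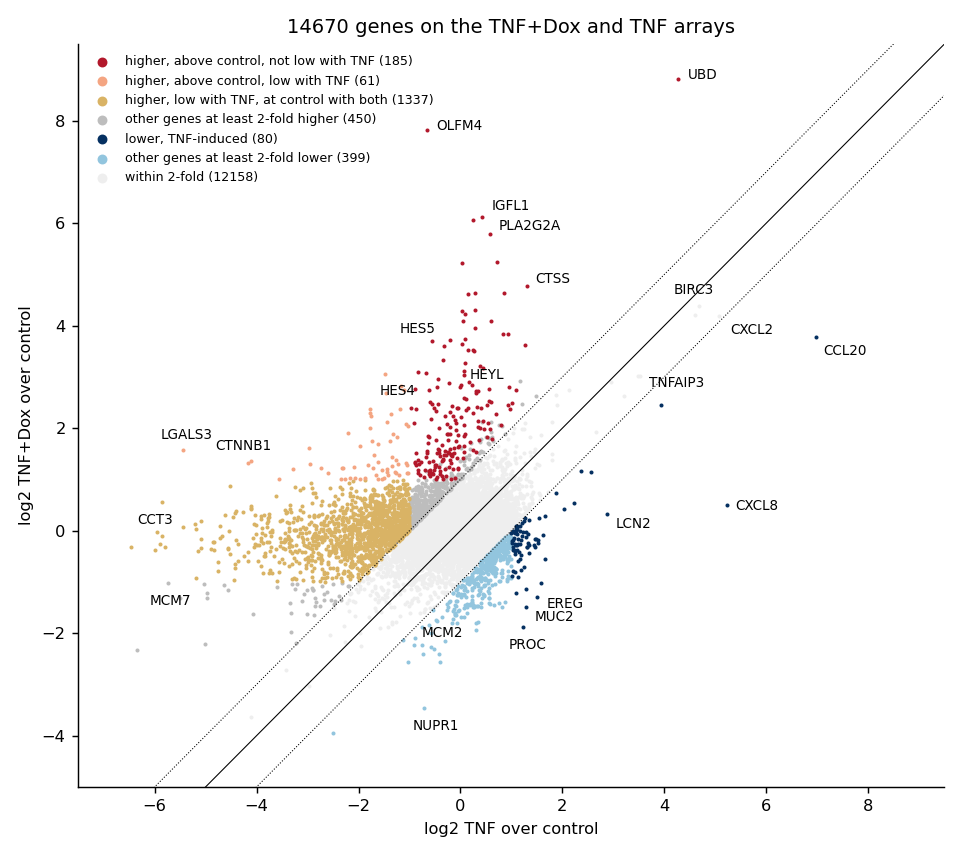
Each point is 1 of 14670 genes, with the log2 ratio over control of the TNF+Dox array on the y axis and that of the TNF array on the x axis. The solid line marks equal ratios and the dotted lines a 2-fold difference. The 185 genes in dark red lie above control with TNF+Dox without a low TNF ratio, the 1337 in tan extend to the left along a TNF+Dox ratio near 0, and CXCL8 and CCL20 lie furthest below the line among TNF-induced genes.

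The shares of the 3 classes of difference varied with brightness in different ways, which the processing explains in part. Gains from a low TNF ratio to the control level made up 0% of genes with a mean control signal under 25, 17.7% between 100 and 500 and 22.0% between 500 and 2000. The offset added to each signal shrinks the ratios of dim genes. With a control signal under 25, even a lost treated spot could hardly give a low TNF ratio. The 0% is therefore set by the processing and cannot show whether dim genes lacked low spots. Gains above control without a low TNF ratio made up 0.845%, 1.25% and 0.947% of the same bins. Losses made up 0.235%, 6.03% and 5.21%. Where several probes measured a gene, every probe passed 2-fold for 12 of 16 gains above control without a low TNF ratio, for 94 of 181 gains to the control level and for 13 of 34 losses. ANXA1 (annexin A1), IGFL4 and TANK (an adaptor of NF-kB signalling) were among the 12.

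**Figure D2:**
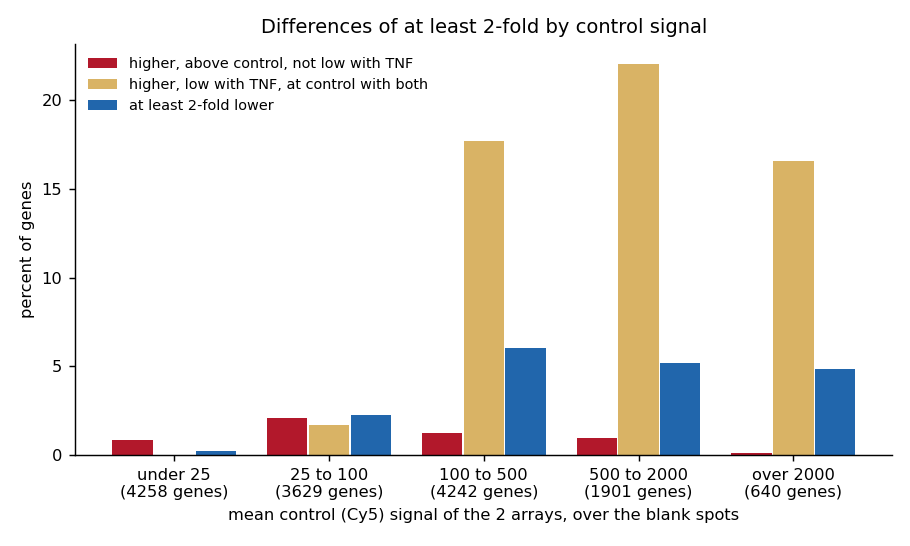
Bars give the percent of genes in 5 bins of mean control signal that were higher and above control without a low TNF ratio (red), higher from a low TNF ratio to the control level (tan) or at least 2-fold lower (blue), TNF+Dox over TNF. The tan bars are 17.7%, 22.0% and 16.6% in the 3 brightest bins and under 2% in the others, while the red bars stay at or below 2.12%. The offset of the processing shrinks the ratios of dim genes, so the dimmest bin could hardly hold a gene of the tan class.

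Among Notch target genes, 9 of 17 measured stood at least 2-fold higher and 0 lower (13.9% and 3.27% of all genes), with a median ratio difference of 1.34 beside 0.03 over all genes. Of the 9, 5 stood above control with TNF+Dox and had no low TNF ratio: OLFM4, HES5, HEYL, HES4 and NRARP. OLFM4, a secreted glycoprotein that marks intestinal stem cells, was the highest gene of the comparison. Promoter windows of the first 4 are printed here because they carry the letters of the RBPJ core. Each runs from 250 bases before to 50 bases after the gene start in the direction of the gene (RefSeq, GRCh38.p14), 5′ to 3′, with matches to the RBPJ core TGGGAA or the NF-kB motif GGNNNTTCC on either strand in capitals.
OLFM4, chr13:53028563-53028862, plus strand: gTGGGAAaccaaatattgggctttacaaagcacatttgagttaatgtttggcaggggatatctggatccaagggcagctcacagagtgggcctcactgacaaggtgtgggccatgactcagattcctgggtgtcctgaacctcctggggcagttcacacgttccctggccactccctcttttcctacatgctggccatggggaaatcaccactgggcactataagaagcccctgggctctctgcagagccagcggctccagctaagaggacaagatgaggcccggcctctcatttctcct
HES5, chr1:2530214-2530513, minus strand: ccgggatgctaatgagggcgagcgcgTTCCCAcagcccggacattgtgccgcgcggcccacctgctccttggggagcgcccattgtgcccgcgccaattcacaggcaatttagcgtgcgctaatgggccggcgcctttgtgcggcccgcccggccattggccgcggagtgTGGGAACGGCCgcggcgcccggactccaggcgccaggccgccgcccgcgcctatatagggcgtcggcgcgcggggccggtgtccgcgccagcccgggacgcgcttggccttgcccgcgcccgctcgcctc
HES4, chr1:1000048-1000347, minus strand: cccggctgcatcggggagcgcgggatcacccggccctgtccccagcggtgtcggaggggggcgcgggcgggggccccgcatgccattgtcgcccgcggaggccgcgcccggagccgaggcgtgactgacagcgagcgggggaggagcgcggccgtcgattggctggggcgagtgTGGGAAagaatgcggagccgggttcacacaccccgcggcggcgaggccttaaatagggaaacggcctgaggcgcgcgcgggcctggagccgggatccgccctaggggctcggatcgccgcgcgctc
HEYL, chr1:39639594-39639893, minus strand: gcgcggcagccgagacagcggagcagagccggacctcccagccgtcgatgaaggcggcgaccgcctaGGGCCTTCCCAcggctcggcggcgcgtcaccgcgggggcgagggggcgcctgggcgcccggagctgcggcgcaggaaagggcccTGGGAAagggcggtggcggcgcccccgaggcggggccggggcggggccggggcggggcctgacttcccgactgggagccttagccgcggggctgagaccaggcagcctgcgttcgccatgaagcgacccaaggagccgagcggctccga
The RBPJ core began 249 bases before the start of OLFM4 and 76 before that of HES4. HES5 held it at 224 and 80 bases before the start and HEYL at 178 and 99, in each gene with the 2 copies on opposite strands. One copy in HES5 and one in HEYL overlapped a match to the NF-kB letters.

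The treated signal of OLFM4 was 65471, at saturation, with TNF+Dox and 16.4 with TNF, beside control signals of 112 and 72.4. Its ratio over control was at least 7.82 with TNF+Dox, -0.66 with TNF and 6.73 with Dox, which gave a ratio difference of at least 8.48. For saturated spots, here and below, such a bound holds only under the processing used. Other settings gave differences of OLFM4 between 7.67 and 10.3. The gene thus read at the top of the scale with TNF+Dox and below its control with TNF. HES5, a repressor of the HES family, had treated signals of 2518 with TNF+Dox and 36.4 with TNF against controls of 62.2 and 64.4, and a ratio difference of 3.92 (15.1-fold). HEYL, of the related HEY family, had 668 and 5.93 against controls of 11.3 and 6.90 (2.84, or 7.16-fold). Its controls and its TNF spot were dim, and other settings gave differences between 1.58 and 5.11. HES4 was bright in the control already, with treated signals of 6904 and 557 against 645 and 650 (3.10, or 8.56-fold). In HES5 and HES4 the control signals of the arrays were close, and in all 3 genes the treated signals were far apart. NRARP, a feedback inhibitor of NICD, had a treated signal of 197 with TNF+Dox and was not above background with TNF, so that no size is given for its difference.

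HES1, the best known Notch target of the intestine, differed least among the HES genes. Its treated signal was 835 with TNF+Dox and 327 with TNF against controls of 212 and 245, a ratio difference of 0.78, below 2-fold. Its ratio over control was 1.00 with TNF+Dox, 0.22 with TNF and 1.35 with Dox. CCND1 (cyclin D1), CD44 and HES7 were at least 2-fold higher only from TNF ratios of -2.03, -2.11 and -1.54, and lay at 0.65, 0.30 and 0.19 over control with TNF+Dox. HES6 was 2-fold below control on both arrays (-1.99 with TNF+Dox, -3.33 with TNF). SOX9, BCL3, MYC, NOTCH3, DTX1, HEY1 and HEY2 stayed within 2-fold, with ratio differences between -0.43 and 0.69.

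Of 26 Notch receptor, ligand and processing genes, 8 stood higher and 1 lower (13.9% and 3.27% of all genes). The ligand gene JAG1 had treated signals of 1383 with TNF+Dox and 47.8 with TNF against controls of 253 and 301, with ratios of 1.47 and -1.69. The ligand gene DLL1 was the 1 lower member (ratio difference -1.47; -0.82 with TNF+Dox and 0.65 with TNF). ADAM10, the protease that makes the first ligand-dependent cut in Notch, stood at 1.18 with TNF+Dox and -0.69 with TNF. Genes of the gamma-secretase complex, which releases NICD, were higher from low TNF values: APH1A had a treated signal of 619 with TNF+Dox and was not above background with TNF, PSENEN had a ratio difference of 1.91, and with TNF+Dox they lay at 0.18 and 0.50 over control. The 2 probes of NOTCH1 read -1.38 and -0.07 with TNF+Dox and -2.83 and -0.12 with TNF, and the part of the gene that each matches is unknown here, so that the transgene is not resolved by them.

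Most of the genes furthest above control with TNF alone were above control with TNF+Dox as well. The 10 genes at least 8-fold over control with TNF were CCL20, CXCL8, CXCL2, BIRC3, LTB, UBD, CXCL10, CXCL1, TNFAIP3 and CXCL3, and 9 of them were at least 2-fold above control with TNF+Dox. Between the arrays 6 of the 10 lay within 2-fold, 3 stood at least 2-fold lower and 1 at least 2-fold higher. BIRC3, an inhibitor of apoptosis, had treated signals of 3467 with TNF+Dox and 3637 with TNF (ratios 4.38 and 4.69). TNFAIP3, which encodes the NF-kB inhibitor A20, had 865 and 783 (3.01 and 3.48). The chemokine gene CXCL2 had 3471 and 5446 (4.19 and 5.08), and CXCL1 and CXCL3 were 0.51 and 0.58 lower. LTB, the gene of lymphotoxin beta, was within 2-fold by its ratio difference of -0.40, but its control signals of 30.6 and 132 were far apart. Its treated signals were 2545 and 6465, a treated-signal difference of -2.26. NFKBIA, the gene of the NF-kB inhibitor IkB-alpha, stood at 2.91 and 2.95.

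**Figure D3:**
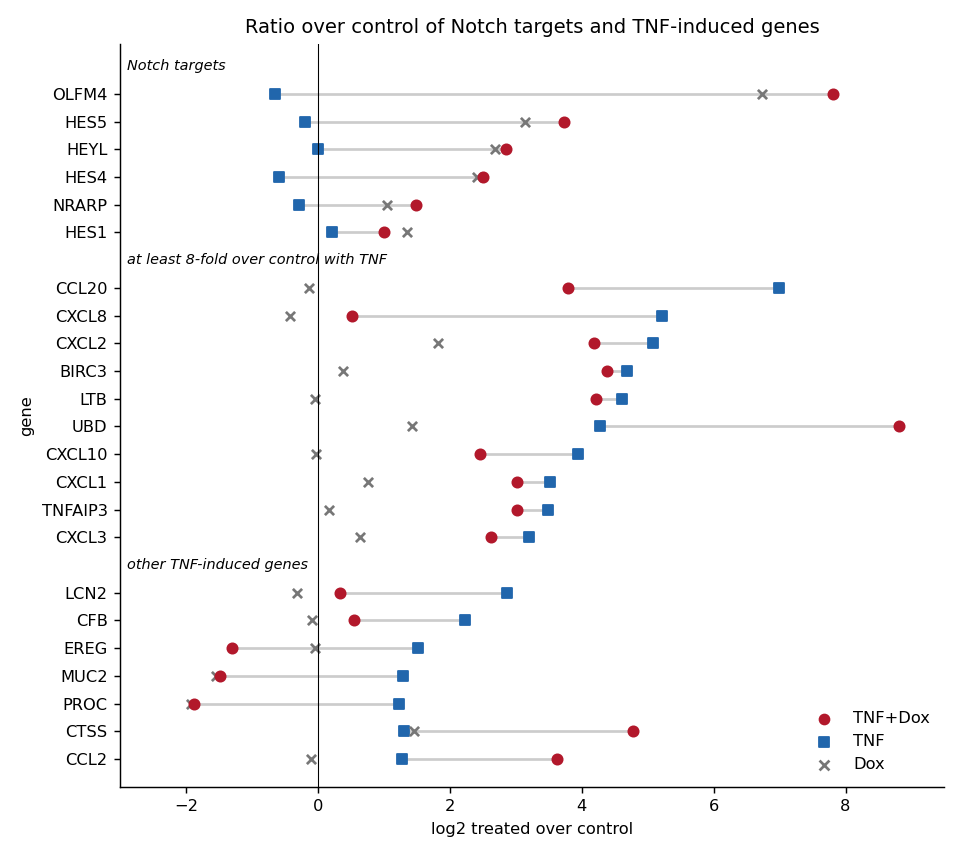
Each row is a gene, and the x axis is its log2 ratio over control on the TNF+Dox (red circle), TNF (blue square) and Dox (grey cross) arrays, 1 array each. The Notch targets have the red circle to the right of the blue square, by at least 8.48 for OLFM4 and 0.78 for HES1. Among the 10 genes at least 8-fold over control with TNF, only UBD has the red circle to the right, while CXCL8, CCL20 and CXCL10 have it at least 2-fold to the left.

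CXCL8, the gene of the neutrophil chemoattractant interleukin-8, was the lowest gene relative to TNF alone. Its treated signal was 93.3 with TNF+Dox and 3596 with TNF, beside control signals of 22.9 and 24.6. The ratio over control was 0.51 with TNF+Dox, 5.22 with TNF and -0.42 with Dox, a ratio difference of -4.71 (26.2-fold lower). It was thus the 1 gene of the 10 that lay within 2-fold of control with TNF+Dox. CCL20, a chemokine of dendritic cells and lymphocytes, had 1303 with TNF+Dox and 13811 with TNF (ratios 3.79 and 6.99, 9.18-fold lower) and was at least 2-fold above control on both arrays. CXCL10, an interferon-inducible chemokine gene, had treated signals of 402 and 753 (treated-signal difference -1.75). Its control was not above background on either array, so that its place among the 10 rests on a ratio without a settled size.

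UBD, the gene of FAT10, a small protein that marks others for degradation, differed in the opposite direction. Its treated signal was 65471, at saturation, with TNF+Dox, 1059 with TNF and 140 with Dox. The control signals were 29.8, 3.36 and 1.85 in the same order, so that the control also read higher where the treated spot was saturated, and its part in the ratio was not tested. Under the processing used, the ratio over control was at least 8.81 with TNF+Dox and 4.28 with TNF, a ratio difference of at least 4.53. Other settings gave differences between 1.81 and 5.52, so 4.53 is not a lower bound across settings. The treated-signal difference was at least 4.95. In the authors' deposited table the TNF+Dox ratio of UBD was 10.2 and the TNF ratio 8.39, a difference of 1.81. The promoter windows of UBD and CXCL8 are printed because both hold the NF-kB letters while the genes differed in opposite directions.
UBD, chr6:29559683-29559982, minus strand: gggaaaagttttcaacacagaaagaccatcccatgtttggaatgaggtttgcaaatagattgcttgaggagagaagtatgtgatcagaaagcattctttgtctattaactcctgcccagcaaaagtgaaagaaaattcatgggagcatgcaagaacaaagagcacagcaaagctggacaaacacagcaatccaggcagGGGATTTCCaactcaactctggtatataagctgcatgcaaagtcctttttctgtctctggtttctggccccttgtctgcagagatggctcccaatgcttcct
CXCL8, chr4:73740319-73740618, plus strand: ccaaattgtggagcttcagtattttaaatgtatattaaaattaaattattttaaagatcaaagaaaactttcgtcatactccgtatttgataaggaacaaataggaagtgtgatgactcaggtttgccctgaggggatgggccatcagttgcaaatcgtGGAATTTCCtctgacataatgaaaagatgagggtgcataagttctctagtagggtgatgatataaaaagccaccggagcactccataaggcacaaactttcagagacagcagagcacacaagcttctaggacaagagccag
The match began 52 bases before the start of UBD and 91 before that of CXCL8, and neither window held the RBPJ core.

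Over all 27305 RefSeq promoter windows, 24.3% held the RBPJ core and 20.1% the NF-kB motif. Over the 11805 measured genes with a window, the shares were 22.4% and 22.3%. Windows were found for 148 of the 185 gains above control without a low TNF ratio, and 20.9% of these held the RBPJ core and 19.6% the NF-kB motif. Of 13 Notch target genes with a window, 6 held the RBPJ core, and of 47 NF-kB and TNF target genes with a window, 27 held the NF-kB motif. Of the 80 TNF-induced genes at least 2-fold lower, 71 had a window, and 22.5% held the RBPJ core and 29.6% the NF-kB motif. The shares in the gains were thus slightly below those of the measured genes, and these matches of letters are a description only.

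Of the 266 genes at least 2-fold above control with TNF, 80 were at least 2-fold lower with TNF+Dox, 8 higher and 178 within 2-fold. The TNF array enters both the choice of these genes and the difference, so the balance is a description. Of the 80 lower genes, 70 lay within 2-fold of control with TNF+Dox. The 4 that were at least 2-fold above control were CCL20, CXCL10, IFI6 (an interferon-induced protein) and STEAP1 (a metalloreductase). The 6 that lay at least 2-fold below control were EREG, FADS1, IQGAP3, MUC2, PROC and PTMA. The 8 higher genes were UBD, CTSS, CCL2, KLK10, TIMP3, HSD11B2, IL32 and TM4SF1.

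Among the 8 higher genes, CTSS, the gene of the lysosomal protease cathepsin S, had treated signals of 4727 with TNF+Dox and 102 with TNF against controls of 49.3 and 18.3 (ratios 4.77 and 1.30, 11.1-fold). CCL2, the gene of a monocyte chemoattractant, had 963 and 67.8, and its control was not above background on either array (treated-signal difference 2.12). TIMP3, an inhibitor of metalloproteinases, had 1121 and 166 (ratio difference 1.65, but 0.035 with the scanner's local background), and HSD11B2, the enzyme that inactivates cortisol, had 1906 and 452. These 4 genes were also at least 2-fold higher in treated signal. KLK10 (a kallikrein protease), IL32 (a cytokine gene) and TM4SF1 (a membrane protein) passed 2-fold in the ratio, but their treated-signal differences of 0.70, 0.28 and 0.37 did not. Centred on the median of all genes, the treated-signal difference of KLK10 was 1.27, and in the authors' deposited values its ratio difference was 0.89.

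Among the lower genes, LCN2, the gene of the antibacterial protein lipocalin-2, had treated signals of 462 with TNF+Dox and 2799 with TNF against controls of 198 and 226. Its ratio over control was 0.33 with TNF+Dox, 2.87 with TNF and -0.31 with Dox (5.82-fold lower). CFB, the gene of complement factor B, had 189 and 562 (ratios 0.54 and 2.22). Both genes therefore read within 2-fold of control with TNF+Dox. EREG, the gene of the growth factor epiregulin, had 155 and 1319 against controls of 275 and 309 (-1.30 and 1.51). PROC, the gene of the anticoagulant protein C, had 57.7 and 832 (-1.89 and 1.23, and -1.93 with Dox). FADS1, a fatty acid desaturase, stood at -1.22 and 1.09 and IQGAP3, a scaffold protein of dividing cells, at -1.03 and 1.59. PTMA, the gene of prothymosin alpha, had treated signals of 16216 and 56941 against controls of 20209.7 and 12803 (-1.13 and 1.28).

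The 49 measured NF-kB and TNF target genes had a median ratio difference of 0.02, with 10 higher and 4 lower (13.9% and 3.27% of all genes). Against control, 23 were at least 2-fold higher with TNF+Dox and 22 with TNF (3.16% and 1.81% of all genes). Of the 22, 16 differed by less than 2-fold between the arrays. The 4 lower members were the chemokine genes CXCL8, CCL20, CXCL5 (-1.71) and CXCL10. The higher members included genes of the NF-kB pathway itself: NFKB1 (p105/p50) stood at 1.32 with TNF+Dox and 0.24 with TNF, NFKBIE (IkB-epsilon) at 1.98 and 0.46, and TNIP1, a partner of A20, at 1.59 and -0.43. TNFAIP2 (1.24 and -0.42) and IRF1, an interferon response factor (1.45 and -0.17), were also higher. Of the 10 higher members, only 5 were at least 2-fold above control with TNF+Dox and also at least 2-fold higher in treated signal. The treated signals of the members named here are not given, so their ratios alone do not place them among the 5. SQSTM1, the autophagy receptor p62, differed by 4.53 from a TNF ratio of -4.10 and lay at 0.43 over control with TNF+Dox. RELB (2.74 and 2.13), OPTN (2.45 and 1.89) and PTGS2 (1.46 and 1.39) lay above control on both arrays and within 2-fold of each other.

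Between the arrays, interferon-stimulated genes were close to the share over all genes. Of 42, 6 were higher and 2 lower (13.9% and 3.27% of all genes), with a median of 0.31. Against control, 11 of the 42 were at least 2-fold higher with TNF+Dox, 3 with TNF and 0 with Dox (3.16%, 1.81% and 1.17% of all genes). IFIT3, an inhibitor of viral translation, had treated signals of 339 with TNF+Dox and 23.2 with TNF (ratios 2.15 and 0.35, a difference of 1.80 that was 0.34 with the local background), and IFIT2 (1.47 and 0.17), TRIM22 (1.53 and 0.30) and ISG20 (1.88 and 0.88) were higher as well. OAS3, a sensor of double-stranded RNA, stood at 0.42 with TNF+Dox and 2.04 with TNF, and IFI6 at 1.16 and 2.36. Of the 6 higher members, only 2 were at least 2-fold above control with TNF+Dox and also at least 2-fold higher in treated signal. Members of the list thus differed in both directions. IFI35 and BST2 were higher from TNF ratios of -2.17 and -1.51.

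Genes of antigen presentation on MHC class I stood higher in 9 of 17 cases and lower in 0 (13.9% and 3.27% of all genes), with a median of 1.12. For 6 of the 9 the TNF ratio was -1 or lower. HLA-E had a treated signal of 2151 with TNF+Dox and was not above background with TNF, and its ratio with TNF+Dox was 1.21. With the scanner's local background its ratio difference was 0.77, below 2-fold. The immunoproteasome genes PSMB8 and PSMB10 stood at 0.81 and 1.23 over control with TNF+Dox and at -2.33 and -2.31 with TNF. TAP1, a peptide transporter subunit, stood at 1.30 and -0.81, and B2M, the invariant chain, at 1.68 and 0.56. Of the 9 higher genes, 4 were at least 2-fold above control with TNF+Dox and also at least 2-fold higher in treated signal. Only 1 of these 4 had no low TNF ratio. Against control, 6 of the 17 were at least 2-fold higher with TNF+Dox, 1 with TNF and 0 with Dox (3.16%, 1.81% and 1.17% of all genes). PSMB9, the third immunoproteasome subunit, stood at 2.13 with TNF+Dox and 1.80 with TNF.

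TNF superfamily and death receptor genes stood higher in 10 of 24 cases and lower in 0, beside 13.9% and 3.27% of all genes (median 0.55). TNFSF10, the gene of the death ligand TRAIL, had treated signals of 4873 with TNF+Dox and 426 with TNF against controls of 147 and 176 (ratios 3.84 and 0.94, 7.45-fold). TNFRSF21, death receptor 6, had a treated signal of 1219 with TNF+Dox and was not above background with TNF, and stood at 3.08 over control with TNF+Dox. The other 8, FAS, FADD, CASP8, RIPK1, TNFRSF10B, TNFRSF10D, TNFRSF12A and TNFRSF25, lay within 2-fold of control with TNF+Dox, and the difference of FADD (1.88) was 0.68 with the local background. The receptor of TNF itself, TNFRSF1A, differed by -0.30. In treated signals centred on the median of all genes the list's median was 0.57.

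Mucosal defence genes were split. PLA2G2A, a secreted phospholipase of Paneth cells, had treated signals of 21331 with TNF+Dox and 271 with TNF against controls of 167 and 160 (ratios 5.79 and 0.58, 37.1-fold). PI3 (elafin, an inhibitor of elastase) had treated signals of 2422 with TNF+Dox, 12.9 with TNF and 17.2 with Dox. Its control signal was 42.1 with TNF+Dox and not above background with TNF. The 2 lower members of the 22 were LCN2 and CFB, and 5 stood higher (3.27% and 13.9% of all genes). LYZ (lysozyme) and PIGR (the immunoglobulin transporter) were higher from TNF ratios of -1.90 and -3.26 and lay at 0.63 and -0.93 with TNF+Dox.

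Outside these lists, the largest gains above control without a low TNF ratio were genes of several kinds. SERPINA12, a serpin, had treated signals of 18679 with TNF+Dox and 20.1 with TNF, beside controls of 108 and 13.3 (ratios 6.06 and 0.25). IGFL1, a secreted growth factor-like protein, had 12061 and 21.0, beside controls of 47.8 and 4.45 (6.11 and 0.43). GUCA2A, the gene of the gut peptide guanylin, had 12346 and 11.5, beside controls of 137 and 13.5 (5.23 and 0.04, and 2.21 with Dox). In these genes the control signal was also higher on the TNF+Dox array, and its part in the ratio was not tested. KRT13, a keratin of stratified epithelium, had 3759 and 18.1 (4.61 and 0.14), IGFBP3, a binding protein of insulin-like growth factors, 3554 and 57.0 (4.09 and 0.05), and LAMA3, a laminin chain, 2181 and 10.1 (4.28 and 0.04, and 2.20 with Dox). SLC2A1, the glucose transporter GLUT1, was bright on both arrays with 31527 and 1589 against controls of 856 and 872 (4.30 and 0.28). SNAI2, a repressor of epithelial genes, had treated signals of 1644 and 5.43 with controls not above background, so that its ratio has no settled size. SAT1, which acetylates polyamines, had 44203 and 1712 (3.71 and -0.56).

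Within the 12 highest gains above control, LGALS3, PSAP, CTNNB1, NBPF15 and ALDH1A1 had low TNF ratios. LGALS3, the gene of galectin-3, had treated signals of 10537 with TNF+Dox and 7.27 with TNF against controls of 1962 and 2340.1, with ratios of 1.58 and -5.45. CTNNB1 (beta-catenin) stood at 1.36 and -4.10, PSAP (prosaposin) at 1.33 and -4.16 and ALDH1A1, a retinal dehydrogenase, at 3.07 and -1.48. Most of the difference in the first 3 thus lay in the TNF ratio, whereas for ALDH1A1 most of it lay above control. EEF2 read 3.93 higher, but with the scanner's local background the difference was -0.10.

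The keratin genes included 4 higher and 1 lower of 15 (13.9% and 3.27% of all genes). KRT17 stood at 3.51 with TNF+Dox and 0.27 with TNF, KRT6A at 1.51 and 0.36 and KRT19 at 2.12 and -1.45. Of the 4 higher keratin genes, 3 were at least 2-fold above control with TNF+Dox and also at least 2-fold higher in treated signal. KRT80 was the lower member, with treated signals of 10.99 and 215 against controls of 79.7 and 100.4 (-1.39 and 0.88). Its ratio difference of -2.28 was -0.61 with the local background, -1.16 without the filter on dim probes and -4.94 with the authors' deposited values. Absorptive enterocyte genes were higher in 8 of 29 cases and lower in 1 (13.9% and 3.27% of all genes). Besides GUCA2A these included BEST4, a chloride channel of a colonocyte subset (3.64 and 0.02), GUCA2B, the gene of uroguanylin (1.53 and 0.06, and 0.25 with Dox), and the fructose transporter SLC2A5, whose treated signal was 1236 with TNF+Dox and not above background with TNF (3.33 over control with TNF+Dox, 0.92 with Dox). DPP4, a brush border peptidase, stood at 1.70 and -1.62. CA2, carbonic anhydrase 2, was the lower member (-0.76 and 0.81).

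Goblet and secretory genes had a median of -0.07, with 4 of 28 higher and 6 lower (13.9% and 3.27% of all genes). MUC2, which forms the mucus gel of the colon, had treated signals of 9.60 with TNF+Dox and 425 with TNF against controls of 85.0 and 133. Its ratio over control was -1.48 with TNF+Dox, 1.28 with TNF and -1.55 with Dox. The gene therefore stood above control with TNF alone and below it on both arrays of cells given doxycycline, with or without TNF. The ratio difference of -2.76 ranged from -5.81 to -0.49 over the other settings, and the treated spot with TNF+Dox was below its control and near background. SPINK4, a goblet cell protease inhibitor, had a lower ratio by both of its probes (-1.70 and -1.65), and FUT3, a fucosyltransferase, stood at -1.68 with TNF+Dox and 0.01 with TNF. GCNT3 (-1.76 and -0.46), GALNT5 (-0.71 and 0.53) and SPINK1 (-0.33 and 0.67) completed the lower members. Against control, 6 of the 28 were at least 2-fold lower with TNF+Dox, 2 with TNF and 4 with Dox (2.11%, 12.2% and 0.402% of all genes).

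TFF1, a peptide secreted with mucus, stood apart from the lower members of this list. Its treated signal was at saturation with TNF+Dox and 1647 with TNF against controls of 927 and 668, and its ratio was at least 5.25 with TNF+Dox, 0.71 with TNF and 4.94 with Dox. MUC13, a membrane mucin, stood at 1.32 and -0.89. The secretory transcription factors had a median of -0.02, and 2 of 13 were higher and 0 lower (13.9% and 3.27% of all genes). FOXA1 stood at 1.03 with TNF+Dox and -0.28 with TNF (a difference of 1.31, and 0.95 with the local background), and SOX4 was higher from a TNF ratio of -2.78. The treated-signal difference of FOXA1 was below 2-fold. ATOH1 had treated signals of 4.06 with TNF+Dox and 3.90 with TNF and controls of 4.59 and 6.22, with neither treated spot above background, so that no difference was detectable at this signal.

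Stem cell and Wnt target genes differed in both directions, with 3 of 23 higher and 4 lower (13.9% and 3.27% of all genes). Of 23 measured, OLFM4, CD44 and AXIN2 were higher, the last from a TNF ratio of -1.96, and 4 were lower: LRIG1 (-1.06 with TNF+Dox, 0.49 with TNF), EPHB2 (-1.05 and 0.28), SLC12A2 (-0.85 and 0.23) and APCDD1 (-0.11 and 0.96). LGR5, the receptor that marks crypt stem cells, stood at -1.89 with TNF+Dox, -1.43 with TNF and -1.03 with Dox, with treated signals of 62.5 with TNF+Dox and 63.5 with TNF and a ratio difference of -0.46. Against control, 7 of the 23 were at least 2-fold lower with TNF+Dox and 7 with TNF (2.11% and 12.2% of all genes), and 5 were so on both arrays. SMOC2 (-1.99 and -1.98) and ZNRF3 (-1.66 and -2.07) were alike on both.

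Cell cycle genes stood below control with TNF+Dox. Of 37 DNA replication genes, 13 were at least 2-fold lower than with TNF and 4 higher, with a median ratio difference of -0.59 (3.27% and 13.9% of all genes), and of 39 mitosis genes 13 were lower and 5 higher (median -0.57). All 37 and all 39 had a ratio below 0 with TNF+Dox, and 19 and 20 of them were at least 2-fold below control (2.11% of all genes). With TNF, 14 and 11 were at least 2-fold below control (12.2% of all genes), and with Dox 0 and 0 (0.402%). The median replication ratio was -1.02 with TNF+Dox, -0.26 with TNF and -0.14 with Dox, and the mitosis medians were -1.01, -0.24 and -0.04.

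**Figure D4:**
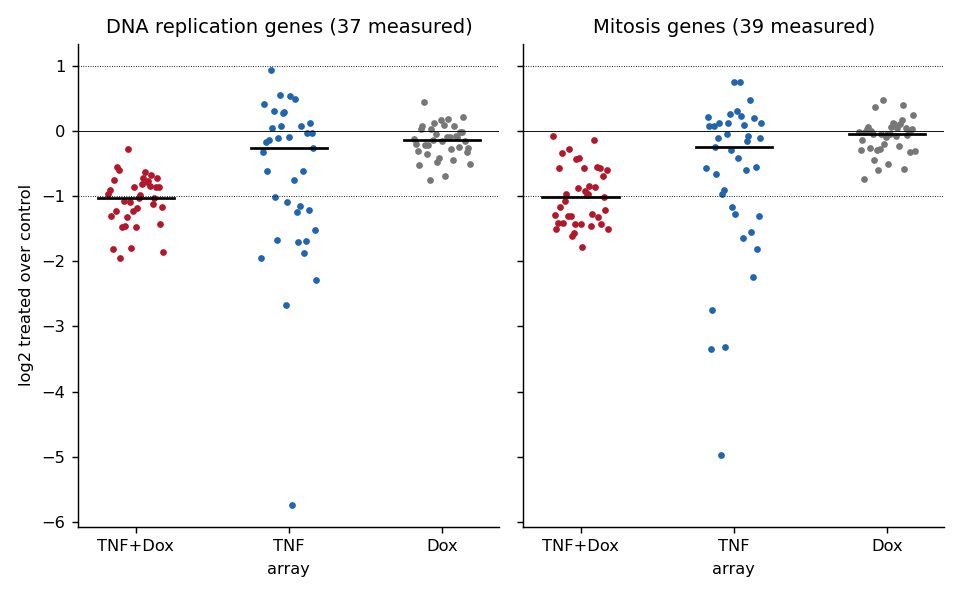
Points are the log2 ratios over control of 37 DNA replication genes (left) and 39 mitosis genes (right) on the TNF+Dox, TNF and Dox arrays, 1 array each, and the bars are medians. With TNF+Dox all points lie below 0 around medians of -1.02 and -1.01, with Dox they lie around -0.14 and -0.04, and with TNF they split into a group near 0 and a tail that reaches -5.74.

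MCM2, a subunit of the replicative helicase, had treated signals of 1242 with TNF+Dox and 6018 with TNF against controls of 2539 and 2965 (ratios -1.80 and 0.30, and -0.47 with Dox). E2F2, an activator of S-phase genes, had 172 and 1020 (-1.95 and 0.31), and FOXM1, an activator of mitotic genes, had 138 and 818 against controls of 276 and 351 (-1.42 and 0.75). These genes were below control with TNF+Dox and slightly above it with TNF. GINS3 (-1.32 and 0.55), CDC45 (-1.31 and 0.41), AURKB (-1.51 and 0.07), UBE2C (-1.50 and 0.12) and PRC1 (-1.43 and 0.21) were alike in this. MCM7 and CDC20 were higher in the ratio difference, at 4.72 and 3.67, with TNF ratios of -5.74 and -4.97. With TNF+Dox they stood at -1.02 and -1.31, like the rest of their lists. PCNA, the sliding clamp, stood at -0.99 and -0.75, and MKI67, whose spots were dim, at -0.13 and -0.15.

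Growth arrest genes stood higher in 12 of 24 cases and lower in 1, beside 13.9% and 3.27% of all genes. Their median was 0.92, and 0.27 with the scanner's local background. CDKN1A, the gene of the cyclin-dependent kinase inhibitor p21, stood at 2.05 with TNF+Dox and 0.81 with TNF, with a treated-signal difference of 0.28. CDKN2B (p15) stood at 2.11 and 0.55, GADD45A at 2.79 and -0.01, PLK2 at 1.51 and -0.45 and BTG2, an antiproliferative gene, at 2.40 and -0.96 with treated signals of 1719 and 39.7. These 4 were at least 2-fold higher in treated signal too. BAX, FDXR, KLF6, PLK3 and ZMAT3 were higher from TNF ratios of -1.40 or lower and lay within 2-fold of control with TNF+Dox. GDF15 was the lower member, by 1 of its probes (-3.48), while the other was near background (-0.12).

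Genes of the ATF4 stress response were higher in 6 and lower in 6 of 26 cases, beside 13.9% and 3.27% of all genes (median -0.26). NUPR1, a stress-induced chromatin protein, had treated signals of 412 with TNF+Dox and 3452 with TNF against controls of 2940 and 3509, with ratios of -3.47, -0.72 and, with Dox, -2.70. TRIB3 (-1.48 and 0.25), CHAC1 (-0.82 and 0.83) and ASNS (-0.57 and 0.48) were lower too. All 6 higher members had TNF ratios of -0.76 or lower, and none was 2-fold above control with TNF+Dox. ERK feedback genes included 2 higher and 5 lower of 25 (13.9% and 3.27% of all genes). Among the lower were DUSP6, a phosphatase of ERK (-2.28 and -0.57), DUSP4 (-0.27 and 1.06) and ETV5 (-0.36 and 0.70). In the EGF family, EREG was lower and ERRFI1, an inhibitor of EGF receptors, stood at 1.77 with TNF+Dox and -0.25 with TNF (a difference of 2.02, and 0.73 with the local background).

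Tight junction and adhesion genes stood higher from low values on the TNF array. Of 26 measured, 13 stood higher and 2 stood lower, beside 13.9% and 3.27% of all genes (median 1.09), and all 13 had a TNF ratio of -1 or lower. CLDN4 (claudin-4) had treated signals of 1934 with TNF+Dox and 4.76 with TNF against controls of 1283 and 1551, with ratios of -0.23 and -4.84. CLDN7 stood at -0.79 and -4.77, CDH1 (E-cadherin) at 0.70 and -1.75 and DSG2 (desmoglein-2) at 0.02 and -3.05. With TNF+Dox these 4 were within 2-fold of control. DSP (desmoplakin), JUP (plakoglobin) and CTNNB1 were above control with TNF+Dox at 2.08, 1.03 and 1.36. CLDN1 was lower (-0.70 and 0.98), as was CLDN12.

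Some bright genes with general roles also read low on the TNF array. The 5 largest gains to the control level among bright genes were CCT3 (a chaperonin subunit), ECH1 (fatty acid oxidation), EIF5A (a translation factor), MDH2 (malate dehydrogenase) and GPX4 (a lipid peroxidase), with ratio differences between 5.64 and 6.41. CCT3 had treated signals of 7517 with TNF+Dox and 11.6 with TNF against controls of 2876 and 3159.6. Both probes of EIF5A were low on the TNF array (-6.33 and -5.58) and at control with TNF+Dox (0.15 and -0.22). Of 61 ribosomal protein genes 9 stood higher and 0 lower, of 35 oxidative phosphorylation genes 7 and 0, and of 30 housekeeping genes 9 and 2 (13.9% and 3.27% of all genes). With TNF 8, 6 and 7 of these lists' members were at least 2-fold below control (12.2% of all genes), and GAPDH and ACTB, at -0.42 and -0.13, were not. Glycolysis genes (5 higher and 3 lower of 29) included GPI at 0.09 and -4.73 beside SLC2A1, and of 11 metallothionein genes MT1X stood higher (3.21 and 0.38) and MT4 lower (-3.95 and -2.50).

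**Figure D5:**
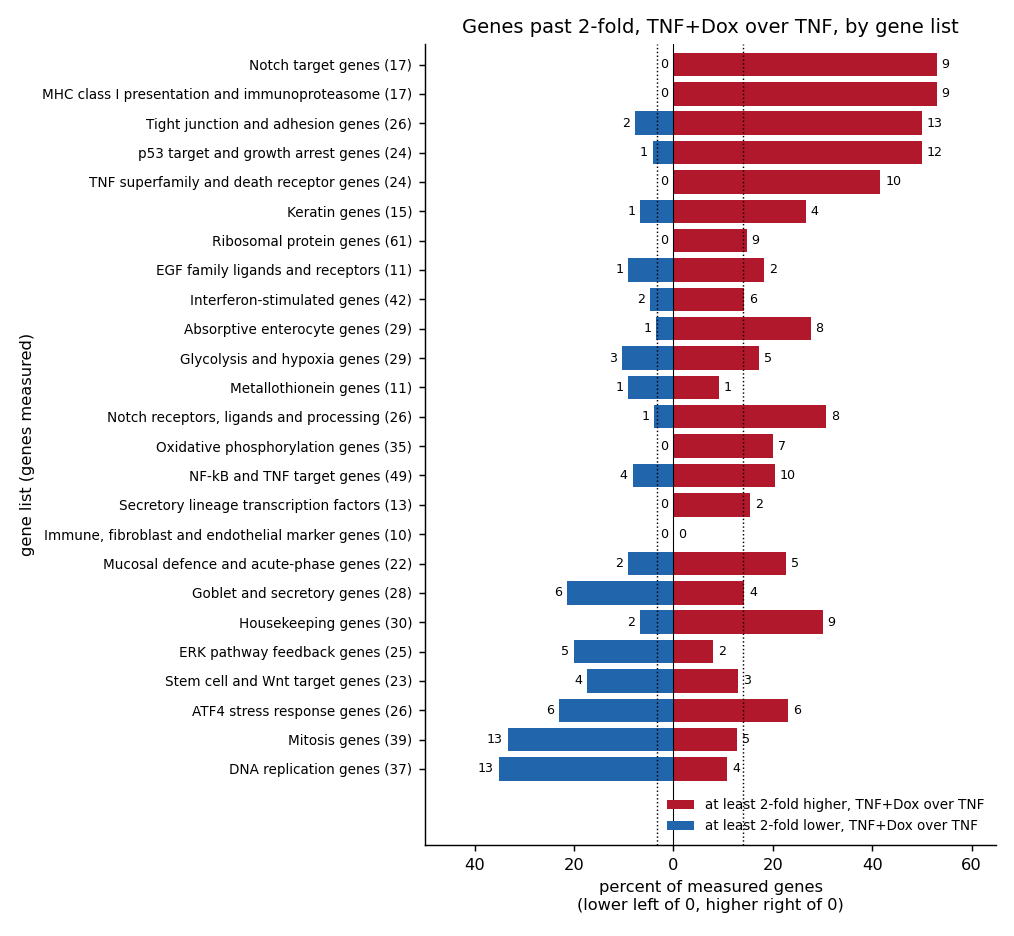
Bars give the percent of measured genes of 25 lists that were at least 2-fold higher (red, right) or lower (blue, left) with TNF+Dox than with TNF, with the gene counts at the bar ends and the lists ordered by median ratio difference. Dotted lines mark the shares over all genes, 13.9% higher and 3.27% lower. Notch target and MHC class I genes have the highest shares above the line and DNA replication and mitosis genes the highest shares of lower genes.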

How the data were processed

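Per the labels' protocols, the RNA of each treated culture and of untreated cells was compared on a two-colour array of spotted oligonucleotides. The deposited scanner files hold the median spot intensity in each channel, per the file headers, and 3 scan gains were combined there. The authors also deposited a table of log2 ratios with treated over control as its direction, which matched the scanner files to within 0.001 for all values set against it. From the intensities, the trimmed mean (0.05) of the blank spots was subtracted, normexp with an offset of 50 was applied, and each array was normalised by loess in limma 3.58.1 (R 4.3.3). Probes above the 95th percentile of the blanks in at least 1 channel of both arrays were kept, and probes of 1 gene were averaged. Of the symbols, 17238 were kept, 2899 updated through RefSeq and 99 left unmatched. A difference counts from 2-fold, a log2 value of 1. With 1 array per condition there was no test, and precision is limited by how few arrays there are. Calculations used Python 3.11.15 and pandas 2.3.3, and the steps were tested on simulated data.

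Genes named were fixed markers, 12 gains above control and 12 losses ranked by the smaller in size of the ratio and treated-signal differences, the 6 TNF-induced genes furthest in each direction, the 5 largest bright gains to the control level and up to 4 members of each of 25 lists. Other genes were named after their values were seen. The members and lists were chosen with earlier results of these data known. Promoter windows are from RefSeq (GRCh38.p14). Alternatives changed the background, offset, normalisation, filter and probe choice or used the deposited ratios or the treated signals alone.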

Additional observations from a re-analysis of the deposited data

Results flagged for a closer look

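RPS2, a ribosomal protein gene, had a ratio difference of 3.58 and was noted because TNF+Dox stood higher than TNF while Dox stood lower than control. Its ratios over control were -1.06 with TNF+Dox, -4.65 with TNF and -1.32 with Dox, and this difference in direction was not tested. Among 3089 kept probes without a gene symbol, which enter no comparison above, 8 were at least 2-fold higher with TNF+Dox and above control without a low TNF ratio.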

How the results depend on the processing

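No paired analysis was possible because each condition had 1 array. Genes at least 2-fold higher numbered 2033, against 3419 with the authors' deposited ratios, 1318 with the treated signals alone and 2371 when these were centred on their median. Genes at least 2-fold lower numbered 479, against 2068 with the authors' ratios, 2355 with the treated signals alone and 733 when centred. Gains above control numbered 246, against 372 with median centring, and gains to the control level 1337, against 852 with the local background and 2230 with the authors' ratios. TNF-induced genes at least 2-fold lower numbered 80, against 157 with an offset of 16, 178 with median centring, 1100 with the authors' ratios, 177 with the treated signals alone and 89 when centred. Those at least 2-fold higher numbered 8, against 16, 22, 42 and 5 under the same settings and 8 when centred. EEF2 turned to -0.10 with the local background, and the cause was not tested. The median of the TNF superfamily list was -0.0024 with the treated signals alone, a scaling that lowers the median of all genes, and 0.57 when centred. Below 2-fold with the local background were also TIMP3, KRT80, IFIT3, HLA-E, MUC2, FADD, FOXA1 and ERRFI1. Gains above control with a TNF ratio above -1 ranged between 129 and 262. The median difference over all genes was 0.03, 0.139 with median centring and -0.574 with the treated signals alone. Signal over background leaves NRARP, HLA-E and other genes not above background without a settled size.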
